A study of Mus musculus with 39 samples.

Results

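Ces1d, Inmt, Itga8, Mettl7a1, Npnt, Tcf21, Limch1 and Macf1 are 8 genes used as markers of alveolar fibroblasts, the resident fibroblasts of the gas-exchange region of the lung. They were chosen by symbol and make up 8 of the 30012 gene names in the count table, and all 8 had enough counts to be tested. Alveolar fibroblasts lie beside the alveolar epithelium, make its matrix and growth factors and in some cases store lipid. In injured lung they are known as a source of cells that lose this programme while taking up inflammatory or fibrotic ones, so the level of such markers in culture is often read as a measure of how far the programme is kept. C1q binds antibody complexes and cell debris and so starts the classical route of complement.

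The cells were fibroblasts of wild-type C57BL/6 mouse lung, left after beads had removed leukocytes (CD45), endothelium (CD31), epithelium (EpCAM), mural cells (CD146) and red cells (Ter119). Adherent cells were passaged in medium with serum, kept without serum for 24 h, and exposed to 1, 10 or 100 µg/ml of C1q, with RNA taken after 2, 24, 48 or 72 h. Each of the 12 groups of dose and time, and 1 untreated group at 0 h, had 3 libraries, 39 in all, read from the 5′ end of poly(A) RNA. Among these libraries the only untreated cells were those at 0 h, so C1q and time in culture cannot be told apart in any comparison with them. Doses were compared at equal time, but against the lowest dose, and whatever else was in the C1q stock rose with dose. The labels do not say that the 3 libraries of a group came from separate cultures or mice, so the p-values rest on a spread between libraries that may be only technical.

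Library totals ran from 1806106 to 3012518 counts. Of the libraries, the third of 1 µg/ml at 24 h stood apart from its group, at 12.5 on the first principal component (40.3% of the variance) where the other 2 lay at -0.511 and 0.555. Levels are given as CPM (counts scaled to a common library size) after scaling of library sizes, and they compare libraries for 1 gene, not genes with each other. Differences are on the log2 scale with their standard error (SE), and "called" means an adjusted p under 0.05 in edgeR's quasi-likelihood test over 14419 genes. The label fibroblast was checked against lineage genes. In untreated cells the collagen gene Col1a1 lay at 1170 to 1500 CPM, Col3a1 at 1710 to 1950 CPM and the receptor gene Pdgfra at 526 to 616 CPM. Genes of depleted cells were present as well: Epcam lay at 43.4 to 59.3 CPM and Ptprc, which encodes CD45, at 2.63 to 4.01 CPM. In such bulk RNA, fewer cells of a type and less RNA per cell cannot be told apart.

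All 8 members are protein-coding genes, placed here by the RefSeq annotation of GRCm38.p6. Ces1d lies at chr8:93166072-93197804, Inmt at chr6:55170627-55174990, Itga8 at chr2:12106632-12301985 and Mettl7a1 at chr15:100304145-100330001. Npnt lies at chr3:132881745-132950291, Tcf21 at chr10:22817263-22820143, Limch1 at chr5:66745889-67057159 and Macf1 at chr4:123349633-123687802. The RefSeq promoter table held 7 of the 8 members, with 10 start sites among 32851 promoters of 300 bases.

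The stretches from 150 to 51 bases before the start lie upstream of the RefSeq start used. That of Mettl7a1 nevertheless lies inside the gene span given above. Such stretches are shown for 5 members. Among them, Inmt and Limch1 followed a like course of expression. Npnt and Macf1, with courses of their own, are not shown. They are RefSeq sequence of GRCm38.p6, written 5′ to 3′ on the strand of the gene, with matches to the searched motifs in capitals. The first is Inmt, minus strand, chr6:55175041-55175140. Itga8 is on the minus strand at chr2:12301995-12302094, Mettl7a1 on the plus strand at chr15:100304667-100304766, and Tcf21 on the minus strand at chr10:22820194-22820293. Limch1, at the first of its 3 starts, is on the plus strand at chr5:66745739-66745838.
Inmt: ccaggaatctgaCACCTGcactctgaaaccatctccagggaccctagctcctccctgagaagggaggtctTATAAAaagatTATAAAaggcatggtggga
Itga8: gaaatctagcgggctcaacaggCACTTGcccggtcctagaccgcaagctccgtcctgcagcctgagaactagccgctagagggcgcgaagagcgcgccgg
Mettl7a1: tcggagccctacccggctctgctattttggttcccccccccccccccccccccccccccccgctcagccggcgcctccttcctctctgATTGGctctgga
Tcf21: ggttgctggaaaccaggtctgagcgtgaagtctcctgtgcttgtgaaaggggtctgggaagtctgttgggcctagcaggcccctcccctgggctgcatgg
Limch1: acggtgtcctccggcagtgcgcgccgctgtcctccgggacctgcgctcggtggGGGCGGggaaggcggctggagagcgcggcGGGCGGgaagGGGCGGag

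Both strands of the whole 300 bases were searched for the TATA box as TATAAA, for the box named CCAAT, for the GC box as GGGCGG and for the E-box as CANNTG. The E-box is read by basic helix-loop-helix factors such as Tcf21, and its forms CAGCTG and also CATCTG, which overlap with it, were counted apart. Further letters were TGTTTAC for forkhead factors, TGACTCA for the factor AP-1 and TCACACCT for the sites of T-box factors. The CArG box and the glucocorticoid response element were searched by their consensus. Of all promoters, 13.6% held TATAAA, 37.4% CCAAT, 35.7% GGGCGG and 72.3% CANNTG. The rarer letters were held by 16.3% (CAGCTG), 17.2% (CATCTG), 3.65% (TGTTTAC), 5.2% (TGACTCA), 1.28% (TCACACCT), 1.63% (CArG) and 0.222% (glucocorticoid response element). Inmt held 2 TATAAA matches, at -80 and -69, and 2 E-boxes, of which the one at -14 reads CAGCTG. Itga8 held E-boxes at -229 and -128, and Mettl7a1 a CCAAT match at -62 and an E-box at -216. Limch1 held 3 GC boxes, at -97, -68 and -58, and an E-box 18 bases after the start that reads CATCTG. Tcf21 had no match to any of the letters. These are matches of letters and no more, and the count data do not bear on whether a factor binds there.

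The plot of CPM by library and time shows that the 8 members did not follow 1 course.

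**Figure D1:**
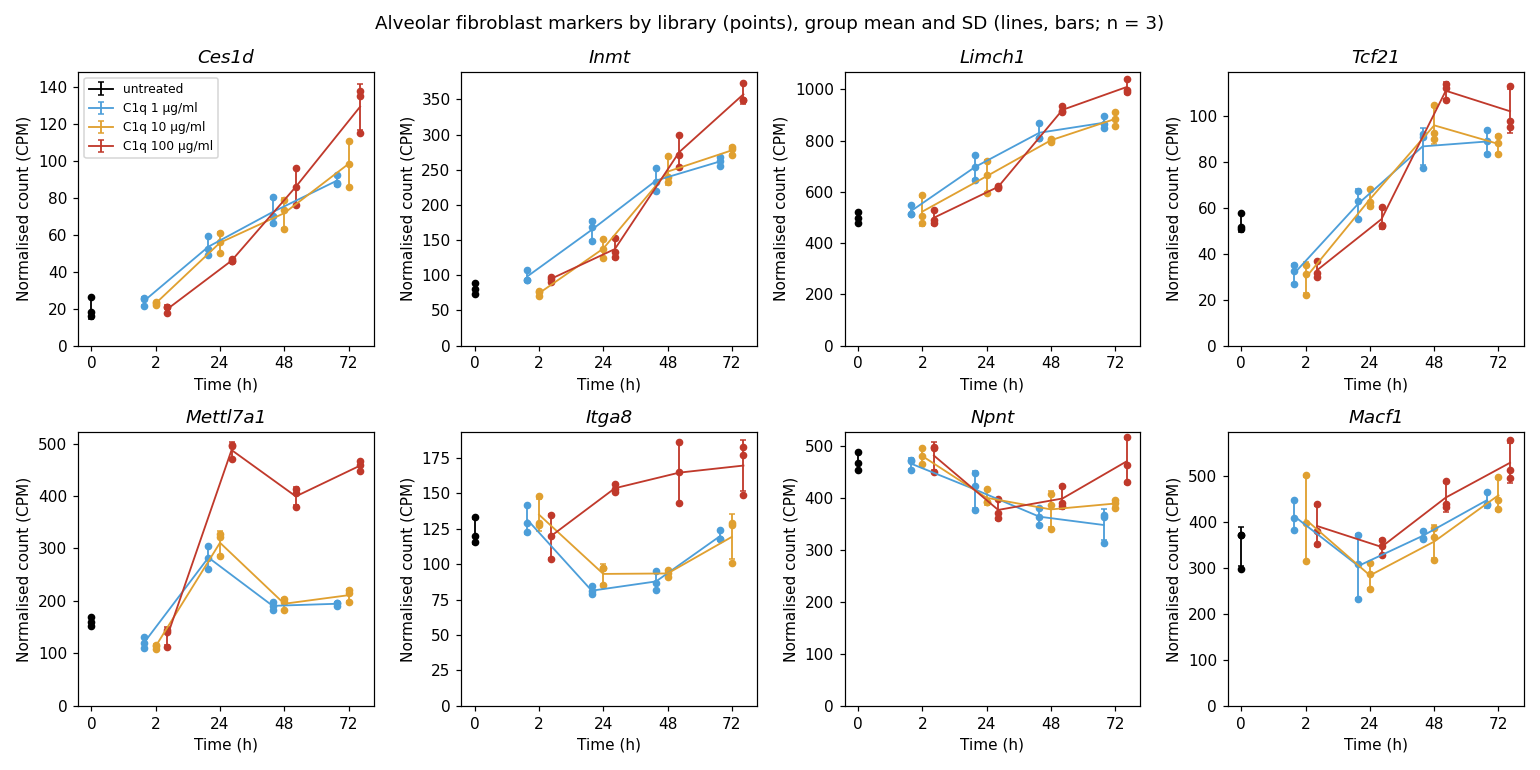
CPM of each marker in each of the 39 libraries (points), with group means joined by lines and bars of 1 SD (n = 3), against time in hours, coloured by C1q dose and drawn side by side within a time. Ces1d, Inmt and Limch1 climb at all doses, Tcf21 first dips at 2 h, and Mettl7a1 and Itga8 part by dose from 24 h on.

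Ces1d, Inmt and Limch1 were higher than in untreated cells at every dose from 24 h on, and their highest group means were those of 100 µg/ml at 72 h. Ces1d encodes a carboxylesterase of lipid and drug metabolism, which hydrolyses esters in the endoplasmic reticulum. Its level was 18.4, 15.8 and 26.4 CPM in the untreated libraries and 87.4, 92.5 and 88.1 CPM at 1 µg/ml for 72 h. At 100 µg/ml for 72 h it was 115, 138 and 135 CPM. No library of either treated group overlapped with the untreated ones or with the other dose. The log2 difference from untreated cells was 1.39 ± 0.15 (SE, n = 3 and 3) at 1 µg/ml and 1.17 ± 0.15 at 100 µg/ml after 24 h, and reached 2.13 ± 0.14 and 2.66 ± 0.14 after 72 h (edgeR adjusted p = 4.2e-17 and 5.5e-21). At 2 h its differences were 0.24, 0.16 and -0.05 from the lowest to the highest dose and were not called.

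Inmt encodes indolethylamine N-methyltransferase, which moves methyl groups to small amines and is abundant in lung. It lay at 88.6, 73.1 and 80.9 CPM in untreated libraries, at 263, 255 and 268 CPM at 1 µg/ml for 72 h, and at 374, 349 and 349 CPM at 100 µg/ml for 72 h. The 3 groups did not overlap. Its log2 difference from untreated cells at 72 h was 1.69 at 1 µg/ml, 1.77 at 10 µg/ml and 2.14 ± 0.096 at 100 µg/ml (SE, n = 3 and 3; edgeR adjusted p = 5.7e-23 for the last). Limch1 encodes a cytoskeletal protein that binds non-muscle myosin II, and it is also expressed in alveolar epithelium. Its group mean went from 501 ± 20.3 CPM (SD, n = 3) in untreated cells to 870 ± 24.1 CPM at 1 µg/ml and 1010 ± 25.9 CPM at 100 µg/ml for 72 h, log2 differences of 0.80 and 1.01. Its log2 differences at 72 h were below those of Ces1d and Inmt at the same doses, a contrast between genes that was not tested.

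Tcf21 encodes the basic helix-loop-helix transcription factor that marks and patterns lung mesenchyme and lipid-storing fibroblasts. It was called lower than in untreated cells at all 3 doses after 2 h. Untreated libraries held 50.9, 57.9 and 51.5 CPM, and the 2 h libraries 32.3, 26.9 and 35 CPM at 1 µg/ml, 31.2, 22.2 and 35.3 CPM at 10 µg/ml and 37, 31.6 and 30.1 CPM at 100 µg/ml. Every 2 h library thus lay below every untreated one, with log2 differences of -0.75, -0.85 and -0.69 (all called by edgeR). At 24 h the differences were 0.22, 0.26 and 0.05 and none was called. At 48 h Tcf21 was above untreated cells at 86.7 ± 8.24, 96 ± 8.1 and 111 ± 3.56 CPM (SD, n = 3) for 1, 10 and 100 µg/ml, log2 differences of 0.70, 0.85 and 1.06. At 72 h the differences were 0.74, 0.72 and 0.94, so the early fall and later rise were seen at each dose.

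Mettl7a1 encodes a methyltransferase-like membrane protein found at lipid droplets and the endoplasmic reticulum, and it parted by dose from 24 h on. It lay at 152, 159 and 170 CPM in untreated libraries and fell at 2 h at 1 and 10 µg/ml, by 0.41 and 0.50 on the log2 scale; at 100 µg/ml the 2 h difference was -0.27 and was not called (adjusted p = 0.074, but 0.049 without the third library of that group). At 24 h it was 261, 305 and 282 CPM at 1 µg/ml, 327, 321 and 285 CPM at 10 µg/ml, and 495, 497 and 471 CPM at 100 µg/ml. At 48 h the 1 µg/ml libraries were back at 183, 198 and 191 CPM, while those of 100 µg/ml held 405, 380 and 413 CPM. At 72 h these were 190, 197 and 197 CPM and 467, 459 and 448 CPM. The highest dose lay apart from both lower doses in every library from 24 h on, while the lower doses peaked at 24 h and then came down.

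Against untreated cells, the log2 differences of Mettl7a1 at 100 µg/ml were 1.60, 1.32 and 1.51 at 24, 48 and 72 h. At 1 µg/ml they were 0.82, 0.25 and 0.28, and at 10 µg/ml 0.96, 0.28 and 0.40. The calls at 1 and 10 µg/ml for 48 h and at 1 µg/ml for 72 h were lost when 1 untreated library was left out (adjusted p = 0.21, 0.14 and 0.088 without the first one, and 0.14, 0.085 and 0.053 without the second). The first of these calls was also lost without the third untreated library (0.059) or its own second (0.097) or the third (0.059), and the second without its own second (0.13) or the third (0.091). Mettl7a1 has near-identical copies, Mettl7a2 and Mettl7a3, and how reads matching several genes were counted is not given in the sources used here. The copies were at far lower counts. Mettl7a2 had 3 to 4 counts in an untreated library and 30 to 34 at 100 µg/ml for 72 h, and Mettl7a3 had 9 to 15 and 22 to 26. At 72 h both were higher at 100 than at 1 µg/ml, by 1.39 ± 0.31 and 1.22 ± 0.32. Of the copies of Ces1d, Ces1g had 16 to 28 counts in a library at 100 µg/ml for 72 h, and Ces1f 3 to 6.

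Itga8 encodes the α8 chain of the integrin α8β1, a receptor for matrix proteins with an RGD motif, and it moved in opposite directions by dose. Untreated libraries held 133, 116 and 120 CPM. At 24 h it was 80.9, 78.8 and 84.3 CPM at 1 µg/ml, 97, 97.3 and 85.2 CPM at 10 µg/ml, and 153, 151 and 157 CPM at 100 µg/ml. At 48 h it was 81.7, 94.9 and 87 CPM at 1 µg/ml and 186, 143 and 165 CPM at 100 µg/ml. The 2 lower doses lay below, and the highest above, all untreated libraries at both times.

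The log2 differences of Itga8 from untreated cells were -0.60 and -0.40 at 1 and 10 µg/ml for 24 h, -0.49 and -0.40 for 48 h, and 0.32, 0.41 and 0.46 at 100 µg/ml for 24, 48 and 72 h. At 72 h the lower doses were at -0.04 and -0.05 and overlapped with untreated cells. The rise at 100 µg/ml for 24 h was called at an adjusted p of 0.011 and was lost without the second or the third untreated library (adjusted p = 0.072 and 0.058) or the third library of its own group (0.051). Itgb1, the β1 chain that pairs with α8 and is named here for that reason, was lower than in untreated cells at 100 µg/ml. Its log2 differences were -0.47 ± 0.083 at 24 h and -0.53 ± 0.084 at 72 h. Its list, of RGD integrins and ligands with 13 genes tested, was mixed at that dose. At 24 h 4 were higher and 3 lower (all genes: 16.8% and 19.9%). At 72 h it was 3 and 5 (all genes: 22.5% and 23.3%).

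Npnt encodes nephronectin, a matrix ligand of α8β1 that is also made by alveolar epithelium, and it was mostly lower than in untreated cells. It lay at 455, 488 and 468 CPM in untreated libraries and at 368, 314 and 363 CPM at 1 µg/ml for 72 h. At 100 µg/ml for 72 h it was 517, 432 and 464 CPM, around the untreated level. Its log2 differences were -0.17, -0.23 and -0.32 at 24 h for the rising doses, -0.37, -0.31 and -0.24 at 48 h, and -0.43, -0.27 and 0.00 at 72 h. All were called except the first and the last. The call at 10 µg/ml for 24 h was lost without the second untreated library (adjusted p = 0.077) or its own second (0.091) or the third (0.084), and that at 100 µg/ml for 48 h without its own second (0.065) or the third (0.078). The RNA of Itga8 and that of Npnt thus stood in opposite directions from untreated cells at 100 µg/ml for 24 and 48 h. Of these calls, that of Itga8 at 24 h and that of Npnt at 48 h were lost without single libraries. The RNA of the other receptor chain, Itgb1, was lower at 24 h, as Npnt was.

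Macf1 encodes a very large protein that links microtubules to actin and is expressed in many cell types. It was not called at 2 or 24 h, although at 24 h the differences of -0.19 and -0.29 at 1 and 10 µg/ml became -0.36 without the third library of 1 µg/ml (adjusted p = 0.033) and -0.41 without the second untreated library (0.02). At 72 h it was 439, 437 and 466 CPM at 1 µg/ml and 512, 496 and 578 CPM at 100 µg/ml, against 371, 297 and 371 CPM untreated, log2 differences of 0.37 and 0.61; at 10 µg/ml the difference was 0.40. At 48 h only 100 µg/ml was called, at 0.39 ± 0.12. The calls of Macf1 at 1 and 10 µg/ml for 72 h and at 100 µg/ml for 48 h were lost without the second untreated library, the lowest (adjusted p = 0.15, 0.12 and 0.12). They were also lost without the third library of 1 µg/ml for 72 h (0.055), the second of 10 µg/ml for 72 h (0.053) and the first of 100 µg/ml for 48 h (0.075), respectively.

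**Figure D2:**
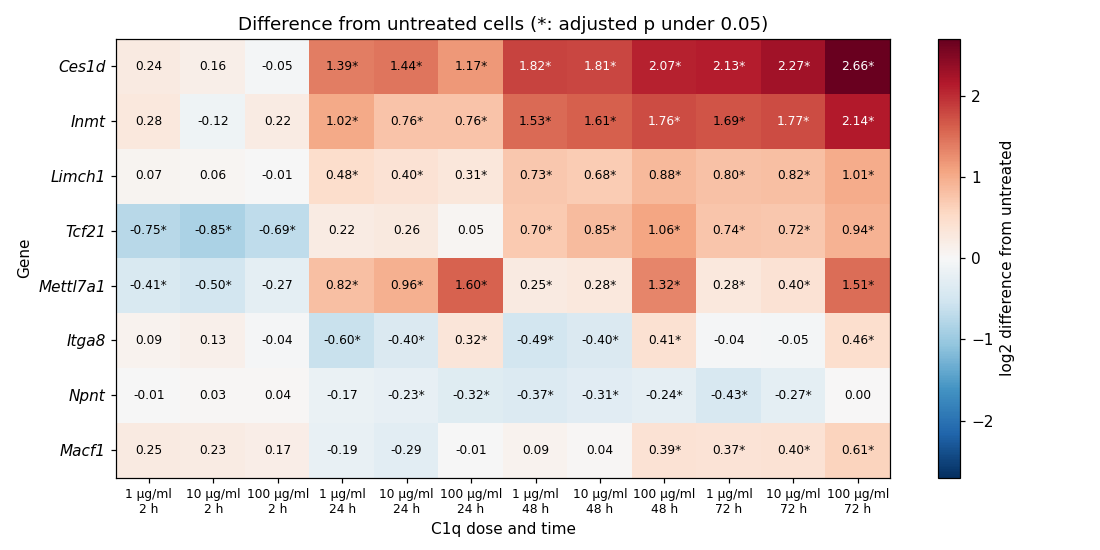
Log2 difference from untreated cells of the 8 markers (rows) in the 12 groups of dose and time (columns), with the value in each field and a star where the edgeR adjusted p is under 0.05. Ces1d, Inmt, Limch1, Tcf21 and Mettl7a1 are above untreated cells in all 9 groups from 24 h on, though Tcf21 has no star at 24 h. Over those groups Itga8 holds fields of both colours, and Npnt is below untreated cells or level with them.

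Counted over the 8 members, few differed from untreated cells at 2 h and most did at 72 h. At 2 h the members higher and lower numbered 0 and 2 of 8 with 1 µg/ml (all genes: 4.28% and 1.87%), 0 and 2 with 10 µg/ml (all genes: 7.64% and 5.1%), and 0 and 1 with 100 µg/ml (all genes: 3.14% and 2.02%). At 24 h they numbered 4 and 1 with the lowest dose (all genes: 10.9% and 14.3%), 4 and 2 with the middle one (all genes: 12.5% and 15.3%), and 5 and 1 with the highest (all genes: 16.8% and 19.9%). At 48 h they numbered 5 and 2 (all genes: 16% and 17.1%), 5 and 2 (all genes: 17% and 17.5%), and 7 and 1 (all genes: 19.1% and 20.9%) in the order of dose. At 72 h they numbered 6 and 1 (all genes: 18.1% and 20.1%), 6 and 1 (all genes: 19.3% and 20.6%), and 7 and 0 (all genes: 22.5% and 23.3%) in the same order. The median log2 difference of the members at 72 h was 0.55, 0.56 and 0.98 for the rising doses, beside medians near 0 over all genes (0.02 to 0.05). These 12 comparisons share the untreated libraries, so their counts are not independent of each other.

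At equal time, more members were called between 100 and 1 µg/ml the later the time in the reported edgeR fit, and the calls of that fit were upward. At 2 h, 0 of 8 members were called in either direction by edgeR, and 0 had an unadjusted p under 0.05 (of all genes, 1.28% were higher and 1.94% lower); DESeq2 called 0 as well. At 24 h, Mettl7a1 and Itga8 were higher and 0 lower (3.77% and 7.21% of all genes), by 0.79 ± 0.083 and 0.92 ± 0.10 (SE, n = 3 and 3). Inmt, at -0.26 ± 0.092, was just short of a call as lower (adjusted p = 0.054), and DESeq2 called it lower (-0.28, adjusted p = 0.045), as did edgeR with RLE scaling (0.04) or without the name LOC118568312 (0.037). At 48 h, 3 were higher and 0 lower (3.82% and 6.44%): Mettl7a1 by 1.07 ± 0.085, Itga8 by 0.90 ± 0.11 and Tcf21 by 0.35 ± 0.11. The call of Tcf21 (adjusted p = 0.024) was lost without the first library of 1 µg/ml (0.15) or without the first (0.066) or the third (0.072) of 100 µg/ml. It was also lost with no filter on low counts (0.12). Without the columns whose names were spelled differently, only 1 library of 1 µg/ml was left at 48 h, and the difference of Tcf21 was 0.28. At 72 h, 5 were higher and 0 lower (4.99% and 6.51%), namely Mettl7a1 by 1.23 ± 0.085, Ces1d by 0.54 ± 0.11, Itga8 by 0.50 ± 0.10, Inmt by 0.45 ± 0.087 and Npnt by 0.44 ± 0.083. Tcf21, Limch1 and Macf1 were at 0.21, 0.21 and 0.24 there and were not called, which does not show that they were alike between the doses.

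**Figure D3:**
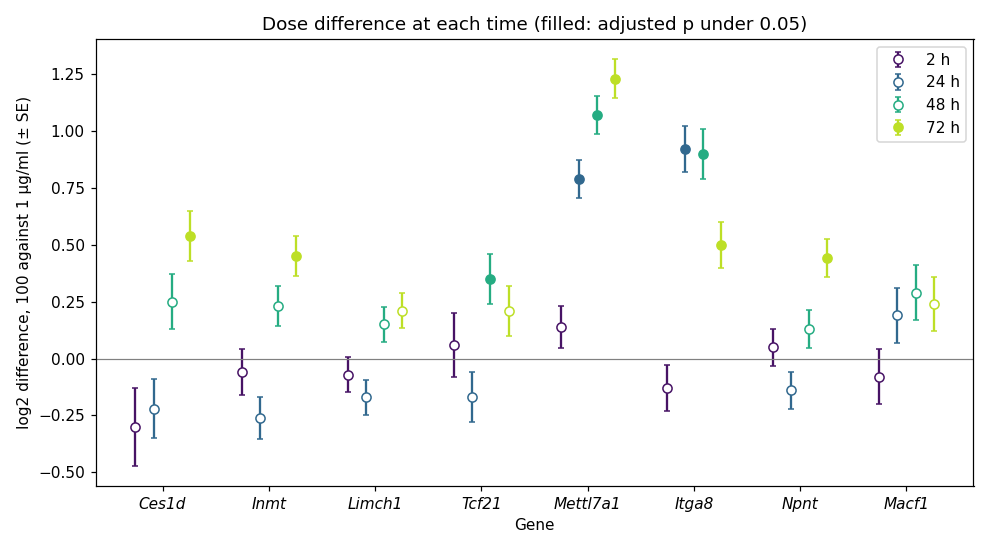
Log2 difference between 100 and 1 µg/ml C1q (± SE, n = 3 and 3) for each marker at 2, 24, 48 and 72 h, with filled points where the edgeR adjusted p is under 0.05. Points of Ces1d and Inmt go from below 0 at 24 h to 0.54 and 0.45 at 72 h, while those of Itga8 come down from 0.92 to 0.50.

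Between 10 and 1 µg/ml few differences were called. It was 1 of 8 members at 2 h (0.839% of all genes), Inmt at -0.40 ± 0.10, a call that was lost on leaving out any of 5 of the 6 libraries compared (adjusted p = 0.063 to 0.33). At 24 h 0 were called (0.0485% of all genes), with 1 member at an unadjusted p under 0.05; at 48 h 0 (0.208%) with 0 unadjusted. At 72 h 0 were called (0% of all genes, 611 of which had an unadjusted p under 0.05) with 0 unadjusted. DESeq2 called 0 members at these 3 times.

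The size of the dose difference changed with time for 6 of 8 members in the test of dose by time, which called 6.78% of all genes. The edgeR adjusted p was 1.2e-07 for Mettl7a1, 2.2e-06 for Itga8, 0.00072 for Inmt, 0.0028 for Ces1d, 0.0051 for Npnt and 0.039 for Limch1. Limch1 was lost on leaving out 1 library in 13 of the 24 cases (adjusted p = 0.053 to 0.076), with no filter (0.26), with thinned counts (0.13) and with only the libraries compared (0.051). Tcf21, not called at 0.12, was at 0.034 when the third 1 µg/ml library of 24 h was left out. Set directly against each other, the 100 against 1 µg/ml difference was larger at 72 h than at 24 h for 4 members, with 0 in the other direction (1.49% of all genes called either way). It grew by 0.76 ± 0.17 for Ces1d, 0.71 ± 0.13 for Inmt, 0.58 ± 0.12 for Npnt and 0.45 ± 0.12 for Mettl7a1 (edgeR adjusted p = 0.0071, 0.00057, 0.0023 and 0.037). The call of Mettl7a1 did not hold without any 1 of 10 of the 12 libraries (0.054 to 0.15). Limch1 was at 0.38 (adjusted p = 0.056, but 0.03 without the first library of 1 µg/ml at 24 h). Itga8 went the other way, at -0.42, and was not called. For Ces1d and Inmt the mean at 24 h was higher at 1 than at 100 µg/ml (53.6 against 46 CPM, and 165 against 138 CPM). These differences, of -0.22 and -0.26, were not called in the reported fit, so a reversal of the dose order is not established. Inmt at 24 h (adjusted p = 0.054) was called without the third library of 1 µg/ml (0.0092) or the first of 100 µg/ml (0.021), and at 48 h, at 0.23 (adjusted p = 0.088), without the first of 100 µg/ml (0.049).

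Averaged over the 3 doses, all 8 members were called between 2 and 24 h, where 5 rose and 3 fell (29.3% and 28.6% of all genes). Mettl7a1 rose by 1.52 ± 0.051 (n = 9 and 9), Ces1d by 1.22 ± 0.084, Tcf21 by 0.94 ± 0.074, Inmt by 0.72 ± 0.056 and Limch1 by 0.35 ± 0.045, while Macf1, Itga8 and Npnt were at -0.38, -0.29 and -0.26. The value of Itga8 averaged opposite movements. Its mean went from 131 to 81.3 CPM at 1 µg/ml and from 135 to 93.2 CPM at 10 µg/ml. At 100 µg/ml it went up, from 120 to 154 CPM. From 24 to 48 h, 5 rose and 1 fell (12.8% and 12.1%). Inmt led with 0.79 ± 0.052 and Tcf21 followed with 0.69 ± 0.064, and the 1 that fell was Mettl7a1, at -0.51 ± 0.049. From 48 to 72 h, 4 rose and 0 fell (8.38% and 8.27%): Ces1d by 0.45, Itga8 by 0.28, Macf1 by 0.28 and Inmt by 0.23. The mean of Itga8 went from 87.9 to 120, 93.5 to 119 and 165 to 170 CPM there, in the order of dose. Tcf21 stood at -0.07 in that step and was not called.

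As a description of how far the members moved together, Pearson's r was taken over the 13 group means of log2 CPM, which share the library scaling and the time course. Ces1d, Inmt and Limch1 were close to each other (r = 0.974 to 0.987), and Tcf21 was at 0.911 to 0.926 with them. Npnt ran against these 4, at -0.656 to -0.591. Itga8 was at 0.0223 with Ces1d and at 0.687 with Macf1.

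**Figure D4:**
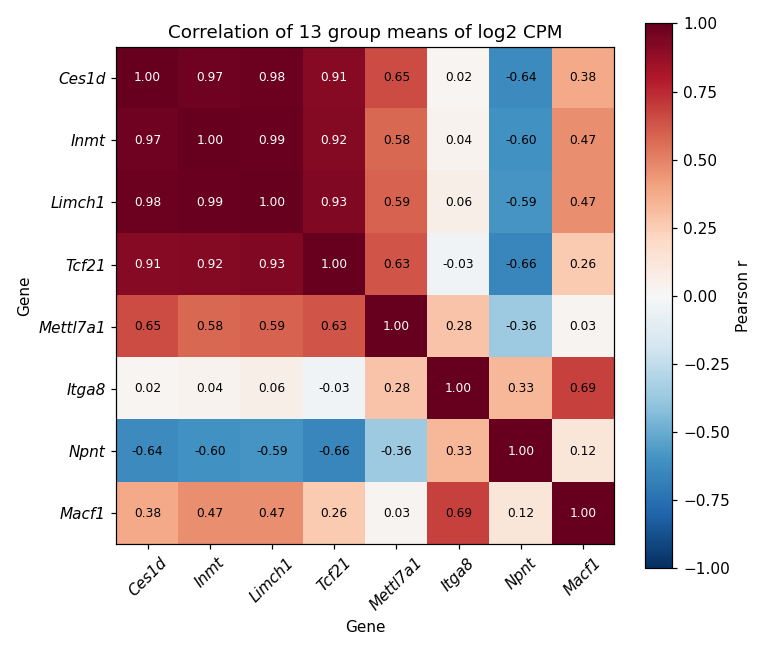
Pearson's r between the 13 group means of log2 CPM for each pair of markers, with the value in each field. Ces1d, Inmt, Limch1 and Tcf21 form a block of high values, and Npnt is negative with all 4.

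Among 10263 named and well-counted genes, those nearest in pattern over the 13 group means differed by member. Nearest to Ces1d were C1ra (r = 0.992), a complement protease gene that has a close copy in the mouse genome, the neuropeptide Y receptor gene Npy1r (0.991) and Gsn (0.991), which encodes the actin-severing protein gelsolin. Gsn was also among the nearest to Inmt (0.978) and Limch1 (0.983), as was the complement gene C3 (0.977 and 0.981). Nearest of all to Inmt was the lipid transporter gene Abca8a (0.979), and Limch1 also had the collagen gene Col6a2 (0.981). Nearest to Tcf21 were Scube1 (0.981), Samhd1 (0.969) and Syn2 (0.967). Mettl7a1 was nearest to Tmem106c (0.976), Tspan17 (0.975) and Ech1 (0.965), a gene of fatty acid oxidation. For Itga8 they were Nt5dc2 (0.922), Dmpk (0.903) and Rgs17 (0.9), for Npnt they were Selenoi (0.938), the laminin gene Lamb1 (0.925) and Pitrm1 (0.916), and for Macf1 they were Slco3a1 (0.951), the taurine transporter gene Slc6a6 (0.943) and Aplp2 (0.903).

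Other genes of alveolar fibroblasts, a list of 25 of which 24 were tested, were also mixed in direction. At 100 µg/ml for 72 h, 17 were higher than in untreated cells and 4 lower (all genes: 22.5% and 23.3%), with a median of 0.79 (all genes 0.05). At 1 µg/ml for 72 h it was 12 and 4 (all genes: 18.1% and 20.1%), with a median of 0.36. The largest rises at 100 µg/ml were those of Mfap4, a microfibril gene, by 2.96 ± 0.09, Rarres2, which encodes chemerin, by 1.96 ± 0.14, and the growth factor gene Bmp3 by 1.54 ± 0.13. The largest falls were those of Cxcl14, a chemokine gene, at -1.88 ± 0.11, the Wnt ligand gene Wnt2 at -1.47 ± 0.18 and Vegfa at -0.90 ± 0.14. Between 100 and 1 µg/ml, 2 were higher and 3 lower at 24 h (all genes: 3.77% and 7.21%), with a median of -0.07. At 72 h, 6 were higher and 1 lower (all genes: 4.99% and 6.51%), with a median of 0.23. Of 11 tested transcription factors of lung mesenchyme besides Tcf21, 4 were higher and 1 lower at 100 µg/ml for 72 h (all genes: 22.5% and 23.3%). Their median was 0.01, beside 0.05 over all genes. Zfpm2 was the highest at 1.06 ± 0.23, and Hoxa5 was lower at -0.78 ± 0.13.

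Markers of other fibroblast states are given beside the members. Some lists share genes, such as Ltbp2 (peribronchial and fibrotic) and Sfrp1 (adventitial and fibrotic), so the lists are not independent of each other. Over all genes, 100 against 1 µg/ml had 3.77% higher and 7.21% lower at 24 h, and 3.82% and 6.44% at 48 h. At 72 h it was 4.99% and 6.51%. Of 16 adventitial fibroblast genes, 10 were higher and 1 lower than in untreated cells at 100 µg/ml for 72 h (median 0.74), led by Clec3b at 4.41 ± 0.12. Between 100 and 1 µg/ml, 0 of them were higher and 7 lower at 24 h (median -0.45), and 3 higher and 5 lower at 72 h (median -0.03). Their sum was 3420 to 3750 CPM at 1 µg/ml and 2170 to 2400 CPM at 100 µg/ml for 24 h. Of 7 tested peribronchial fibroblast genes, 2 were higher and 0 lower at 100 than at 1 µg/ml for 24 h (median 0.16), 3 and 0 for 48 h (median 0.55), and 1 and 0 for 72 h (median 0.32). Their sum at 72 h was 230 to 273 CPM at 1 µg/ml and 335 to 352 CPM at 100 µg/ml. Of 11 tested fibrotic fibroblast genes, 0 were higher and 6 lower between these doses for 24 h (median -0.57). For 72 h, 1 was higher and 6 lower (median -0.91), among them Cthrc1, at -1.19 ± 0.22, which encodes a secreted collagen triple helix repeat protein. The sum of all 12 listed was 5040 to 6260 CPM at 1 µg/ml and 3610 to 4020 CPM at 100 µg/ml for 24 h. For 72 h these sums overlapped, at 5790 to 6090 and 5570 to 6170 CPM. Of 12 contractile genes, 3 were higher and 0 lower for 24 h (median 0.23), but 0 higher and 7 lower for 72 h (median -0.39), among them Cnn1 at -0.84 ± 0.24, Des at -0.97 ± 0.16 and Tagln at -0.91 ± 0.11. Of 12 inflammatory fibroblast genes, 0 were higher and 5 lower for 24 h, and 1 higher and 3 lower for 72 h. Of 12 lipid droplet genes, it was 1 and 1 for 24 h, and 1 and 3 for 72 h. Against untreated cells at 72 h, 9 of the inflammatory genes were higher and 1 lower at 1 µg/ml (all genes: 18.1% and 20.1%). At 100 µg/ml it was 7 and 1 (all genes: 22.5% and 23.3%). Their sum was 1340 to 1440 CPM in untreated libraries, 3450 to 3640 CPM at 1 µg/ml and 3060 to 3070 CPM at 100 µg/ml for 72 h.

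Genes of other cell types moved with time as well. All 13 tested myeloid genes of 16 listed were higher than in untreated cells at 72 h, both at 1 and at 100 µg/ml (all genes: 18.1% and 22.5% higher). The list includes the genes of the C1q chains, C1qa, C1qb and C1qc. The summed level of the listed myeloid genes was 274 to 299 CPM in untreated libraries. At 72 h it was 1270 to 1370 CPM at 1 µg/ml and 963 to 1180 CPM at 100 µg/ml. Ptprc lay at 12.8 to 14.9 CPM and 7.4 to 9.32 CPM in these 2 groups, while the granulocyte gene S100a8 never passed 4 counts and the alveolar macrophage gene Siglecf never passed 2 counts in a library. Of 14 tested alveolar epithelial genes, 0 were higher and 11 lower at 100 µg/ml for 72 h (all genes: 22.5% and 23.3%). Their sum fell from 845 to 940 CPM to 258 to 273 CPM, and it was 324 to 375 CPM at 1 µg/ml. At 72 h, of the 16 listed epithelial genes, only Scgb1a1, a gene of airway club cells, was at 0 in all libraries of a group, at 1 and at 100 µg/ml.

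The sums of endothelial markers were 61.7 to 73.7 CPM in untreated libraries, 79 to 101 CPM at 1 µg/ml and 47.6 to 63.8 CPM at 100 µg/ml for 72 h. Those of mesothelial markers were 338 to 370, 533 to 612 and 363 to 410 CPM in the same groups, and those of pericyte and smooth muscle markers 204 to 217, 232 to 245 and 220 to 243 CPM. The part of such changes in cell make-up in the values of the 8 members was not tested.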

How the data were processed

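Counts of 5′-end reads per gene were deposited by the authors as 1 table of raw, unnormalised counts for 39 libraries, and all columns were used. Per the submitters' processing notes, the tools were cutadapt 2.1.0 and Bowtie2 2.4.2, with the mouse build GRCm38. Not given in the sources used here are the counter, its annotation, and how it treated strand, molecular identifiers and reads with several matches. Columns were matched to samples by title and serial number. For 9 columns with another spelling only the serial number gave the match. These were, at 24 h, the last of the 1 µg/ml columns and all those of 10 and 100 µg/ml, and at 48 h 2 of the 1 µg/ml columns. The chi-square statistic between replicates ran from 1.31 to 8.48 per degree of freedom over 39 pairs, so no pair agreed within sampling noise.

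Counts were fitted with edgeR 4.0.16 (R 4.3.3) by the quasi-likelihood test in 1 fit with a mean for each of 13 groups, with TMM scaling and the default filter (14419 genes, 99.4% of counts). P-values were adjusted over all tested genes by the Benjamini-Hochberg method within each of 25 comparisons, with a threshold of 0.05. The SE of a log2 difference was its size divided by the root of the F statistic. CPM used the TMM library sizes, and correlations used log2 CPM with a prior count of 2. Patterns were compared with genes of a mean log2 CPM of at least 3, leaving out predicted genes, and the 3 nearest were named for each member. Of the other lists, up to 3 rises and 3 falls by size were named, besides single genes for which the text gives another reason. The totals of 1806106 to 3012518 counts per library limit the precision of genes with few counts.

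The members, lists and tests were chosen with earlier results of these data known. Alternatives were DESeq2 1.42.0, RLE scaling, a robust fit, no filter, thinning of all libraries to the smallest total, an adjusted p under 0.01, a fit of only the libraries compared, scaling without ribosomal protein genes, counts without LOC118568312 (6.75% to 12.8% of counts by group), no differently spelled columns, and each library left out in turn. The fit was tested on simulated counts. Figures were drawn with matplotlib 3.10.9.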

Additional observations from a re-analysis of the deposited data

Results flagged for a closer look

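For 6 members the difference between 100 and 1 µg/ml differed between the 4 times, by a test of that difference over dose and time. The edgeR adjusted p was 0.0028 for Ces1d, 0.00072 for Inmt, 2.2e-06 for Itga8, 1.2e-07 for Mettl7a1, 0.0051 for Npnt and 0.039 for Limch1. For 4 of them the difference at 72 h was also larger than that at 24 h in a direct test, by 0.76 (Ces1d), 0.71 (Inmt), 0.58 (Npnt) and 0.45 (Mettl7a1) on the log2 scale. Itga8 was not among the latter: its dose difference was 0.92 at 24 h, 0.90 at 48 h and 0.50 at 72 h. The call of Limch1, and that of Mettl7a1 in the direct test, were lost on leaving out single libraries. With only the libraries compared, Limch1 was lost in the first test, and Npnt and Mettl7a1 in the direct one.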

How the results depend on the processing

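Over the 10 other ways of processing, 234 of 241 counts of called members stayed within 1.5 times the reported count, and of 1928 single differences 1884 stayed on their side of the threshold, 31 fell below it, 13 rose above it and 0 changed sign while called. With 1 library left out, 204 of 210 counts and 1616 of 1680 differences stayed, 56 fell below the threshold and 8 rose above it. The member called between 10 and 1 µg/ml at 2 h became 0 with no filter, with thinned counts, without LOC118568312, at an adjusted p under 0.01 and with only the libraries compared, and ranged from 0 to 1 with 1 library left out. With only the libraries compared, 5 members instead of 3 were called between 100 and 1 µg/ml at 48 h, and 2 instead of 4 for the change of that difference from 24 to 72 h, Npnt (adjusted p = 0.069) and Mettl7a1 (0.13) being lost. At 100 µg/ml for 2 h, 1 to 2 members were called against untreated cells with 1 library left out. Among single calls, those of Mettl7a1 at 1 and 10 µg/ml for 48 h and 1 µg/ml for 72 h were lost with no filter (adjusted p = 0.11, 0.075 and 0.051), as was its growth of the dose difference (0.14). Npnt at 10 µg/ml for 24 h was lost with no filter (0.12) and with thinned counts (0.081). The causes were not tested.

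Totals over all genes, beside which the members' counts were read, moved more. Between 100 and 1 µg/ml, 465 genes were called at 2 h and 302 with only the libraries compared. At 24 h it was 1582 genes (34.3% of them higher), 685 with only the libraries compared (22.5%) and 1232 by DESeq2 (23%). At 48 h it was 1480 (37.2% higher) and 1442 with no filter (26.8%). Between 10 and 1 µg/ml, 121 genes at 2 h became 50 with only the libraries compared. There 7 at 24 h became 1 with only the libraries compared, 2 in the robust fit, 11 with thinned counts or by DESeq2, 81 with no filter, and 0 to 168 with 1 library left out. The 30 at 48 h became 0 with only the libraries compared, 1 in the robust fit, 16 by DESeq2, 18 with thinned counts, 78 with no filter and 1 to 73 with 1 library left out. The 0 at 72 h became 7 with no filter. The 215 genes whose dose difference changed from 24 to 72 h became 105 with only the libraries compared, and 444 when the third 1 µg/ml library of 24 h was left out. Without the differently spelled columns, only 1 library of 1 µg/ml was left at 48 h, so totals for that group are not given. With no filter, 71.6% instead of 60.9% of the genes called at 100 µg/ml for 2 h were higher. With 1 library left out, the totals between 100 and 1 µg/ml went as low as 233, 920, 957 and 1068 (of 1658) at 2, 24, 48 and 72 h, without the second 1 µg/ml library at 2 h, the first 1 µg/ml library at 24 h, the last 100 µg/ml library at 48 h and the first 1 µg/ml library at 72 h. That between 10 and 1 µg/ml at 2 h went to 45, that for 1 µg/ml at 2 h from 887 to 567, that for 100 µg/ml at 2 h from 744 to 466, and that for dose by time from 978 to 1473. At an adjusted p under 0.01, totals were 0.333 to 0.652 times those at 0.05 in the comparisons that moved by over 1.5 times.

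DESeq2 was not run for the test of dose by time. Comparisons with 10 or 100 µg/ml at 24 h could not be made without the differently spelled columns. No paired analysis was possible because replicate numbers only follow the order of the samples. Untreated cells at later times were not among the libraries analysed here.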
